A study of Rattus norvegicus with 4 samples.

Results

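The genes described here encode 10 enzymes of serine synthesis, glycine cleavage and folate-dependent one-carbon metabolism, and they were picked by gene symbol from the 16992 genes of the liver RNA-seq tables. The serine synthesis enzymes are *Phgdh*, *Psat1* and *Psph*. The cytosolic folate arm is *Shmt1* and *Mthfd1*, the mitochondrial arm is *Shmt2*, *Mthfd2*, *Mthfd1l* and *Aldh1l2*, and *Gldc* stands for glycine cleavage. Each gene had 1 annotated row in every library. RNA came from the left lateral lobe of wild type male Wistar rats that were 6 weeks old at purchase and were acclimatized for at least 1 week, with 1 rat and 1 library for each of 4 conditions. Sevoflurane (4.5%) or desflurane (6%) was inhaled in oxygen-enriched gas for 6 h, and the control of each agent was a rat killed right after it lost consciousness. The controls thus also inhaled the agent, and all rats had been deprived of food and water for 2 h beforehand. The other rats then spent 6 h under anesthesia, so time without food cannot be told apart from time under the agent. Because there is 1 library per condition, no difference between these libraries has a replicate check here, no test was made and no p-value was calculated. The 2 control livers, which differ in agent as well as in animal, give the only view of how far 2 rats without long anesthesia were apart.

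Serine is built from a glycolytic intermediate in 3 steps, by a dehydrogenase (*Phgdh*), an aminotransferase (*Psat1*) and a phosphatase (*Psph*). Serine hydroxymethyltransferases then split serine into glycine and a carbon unit carried by tetrahydrofolate, with *Shmt2* in mitochondria and *Shmt1* in the cytosol. In mitochondria the unit is oxidized by *Mthfd2* and released as formate by *Mthfd1l*, or burned to carbon dioxide by *Aldh1l2*. In the cytosol *Mthfd1* interconverts the folate-bound carbon units that feed purine, thymidylate and methionine synthesis. *Gldc* is the decarboxylase of the glycine cleavage system, which passes the carbon of glycine to mitochondrial folate. The liver is known for a high capacity of the folate and methionine cycles, and several of these genes are known targets of the amino acid stress factor ATF4.

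Levels are given as the deposited TPM values, which are corrected for gene length so that genes can be compared with each other. They are not exact shares of transcripts, since annotated genes come on top of assembled transcripts that already fill the full sum. A gene was called, according to the limits of the study, when its TPM value was above 2 in the higher of 2 libraries and more than 2-fold different between them. The depth corresponded to between 4.47 and 5.40 Gb of aligned sequence per library. The 9136 genes with TPM values above 2 in every library were shifted as a whole by a median log2 change of 0.12 with desflurane, against which the desflurane values are to be read, and of 0.05 with sevoflurane. Hepatocyte markers summed to between 151801 and 168627 TPM, with *Alb* (albumin) the highest. The 10 macrophage markers summed to 452 TPM in the sevoflurane 6 h library and to between 561 and 719 TPM in the others, with *C1qc* the highest and none at 0. The 16 pancreatic acinar markers summed to 74.6 TPM in the sevoflurane control and to between 17.6 and 19.6 TPM elsewhere. The elastase gene *Cela1* made up most of the latter, and *Prss1*, *Prss2*, *Prss3* and *Ctrb1* were listed at 0 in all libraries but that control. The 11 lymphocyte markers, led by *Ptprc*, summed to 9.64 TPM after 6 h of sevoflurane and to between 18.4 and 28.1 TPM elsewhere. Sums over the libraries ranged from 34.7 to 85.6 TPM for erythroid (*Hba-a2* highest), 14.5 to 21.4 for cholangiocyte (*Epcam*), 421 to 463 for stellate and endothelial (*Col3a1*), 2557 to 4712 for periportal (*Ass1*) and 3052 to 5007 for pericentral (*Cyp2e1*) markers. Since whole liver was sequenced, fewer cells of a type and less RNA per cell cannot be told apart.

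With sevoflurane, *Phgdh* and *Psat1* of the serine synthesis pathway and mitochondrial *Mthfd2* rose by between 3.64-fold and 5.34-fold over the sevoflurane control. No member was called lower. With desflurane, *Mthfd2* fell 2.44-fold below the desflurane control, a call lost under several other settings, and no member was called higher. The cytosolic enzymes *Shmt1* and *Mthfd1* were between 1.19-fold and 1.40-fold higher at 6 h whichever agent and control was used, and were not called. After 6 h of sevoflurane, 3 of 10 members were called higher, compared with 2.23% of 9754 genes tested, and 0 were called lower, compared with 3.3%. After 6 h of desflurane, 0 of 10 were called higher and 1 lower, against 2.79% and 1.48% of 9855 genes. The median log2 change of the members was 0.53 with sevoflurane (0.05 over all genes tested) and -0.38 with desflurane (0.12 over all genes tested). The same members were called when the controls were exchanged between the agents. For sevoflurane this gave 3 called higher and 0 lower (2.52% and 2.59% of all genes tested), and for desflurane 0 higher and 1 lower (2.84% and 1.58%). The comparison with the desflurane control leaves out the library with acinar markers. These comparisons share libraries, and each of them is given for its own value. The members were chosen with earlier results of these data known, so their counts are a description only.

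**Figure D1:**
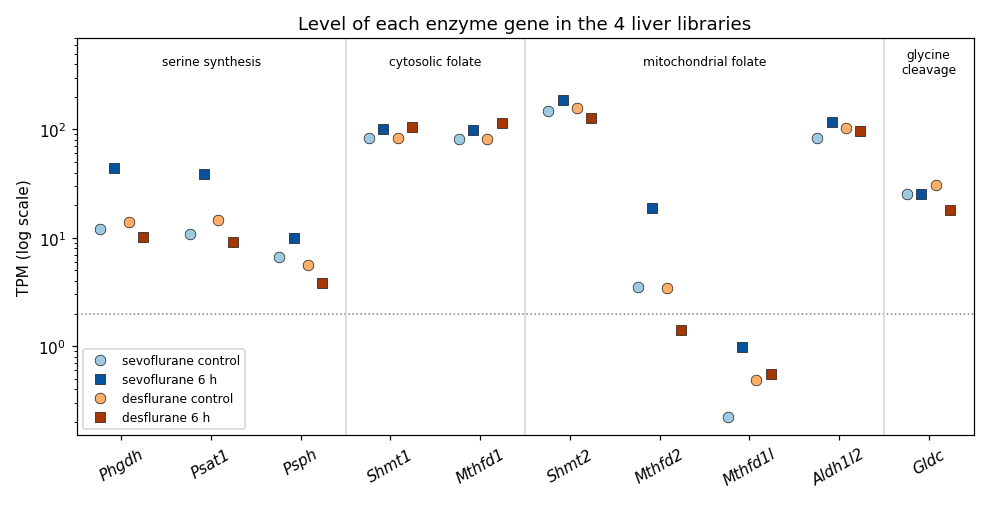
TPM values (log axis) of the 10 enzyme genes in the 4 liver libraries, 1 point per library, with controls as circles, 6 h libraries as squares and the TPM limit of 2 as a dotted line. The sevoflurane 6 h square stands above the other 3 points for *Phgdh*, *Psat1*, *Psph*, *Mthfd2*, *Mthfd1l*, *Shmt2* and *Aldh1l2*, and the desflurane 6 h square is the lowest point for *Phgdh*, *Psat1*, *Psph*, *Shmt2*, *Mthfd2* and *Gldc*.

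The DNA just upstream of the 3 genes called higher with sevoflurane is shown so that the motifs counted further on can be located. These are the 250 bases before the RefSeq start in the GRCr8 assembly, which is a later build than the rn6 of the expression tables, and each is read 5′ to 3′ on the strand of the gene. Capitals mark CCAAT in either orientation. The stretches lie at chr2:188624790-188625039 (minus strand, *Phgdh*), chr1:222645409-222645658 (minus strand, *Psat1*) and chr4:117380351-117380600 (minus strand, *Mthfd2*).
Phgdh: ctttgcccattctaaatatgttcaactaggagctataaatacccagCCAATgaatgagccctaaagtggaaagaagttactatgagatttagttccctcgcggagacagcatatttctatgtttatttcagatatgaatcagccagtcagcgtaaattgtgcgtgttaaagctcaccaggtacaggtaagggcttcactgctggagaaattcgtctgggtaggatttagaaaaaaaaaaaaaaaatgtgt
Psat1: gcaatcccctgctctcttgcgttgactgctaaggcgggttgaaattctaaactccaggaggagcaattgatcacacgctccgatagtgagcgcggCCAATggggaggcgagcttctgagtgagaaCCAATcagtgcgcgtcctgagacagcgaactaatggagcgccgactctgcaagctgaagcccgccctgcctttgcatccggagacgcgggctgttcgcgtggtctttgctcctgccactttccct
Mthfd2: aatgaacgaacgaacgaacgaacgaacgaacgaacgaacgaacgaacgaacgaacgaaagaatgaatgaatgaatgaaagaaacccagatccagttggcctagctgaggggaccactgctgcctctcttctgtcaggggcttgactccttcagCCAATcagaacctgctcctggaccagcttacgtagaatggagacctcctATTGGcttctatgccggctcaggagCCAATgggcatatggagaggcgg
Of the 10 members, 8 were matched in the promoter table, and *Mthfd1* and *Aldh1l2* were not.

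CCAAT, the letters of a common proximal promoter box, was present in 5 of the 8 matched members, compared with 34.0% of 33469 promoters searched over the same 250 bases on both strands. *Mthfd2* held 3 copies, beginning 97, 48 and 23 bases before the start, and 3 or more copies were found in 2.52% of promoters. *Psat1* held 2 copies at 155 and 125 bases before the start, and *Phgdh* held 1 at 204 bases. The remaining copies were in *Gldc* (224 and 77 bases before the start) and *Shmt1* (194 bases). TGATGNAA, letters of the amino acid response element to which ATF4 binds, was found in 0 of the 8 members, in 7 of 20 matched promoters of the ATF4 gene list described further on, and in 3.40% of all promoters. CACGTG, the E-box, was found in *Shmt1* alone among the 8, at 89 and 61 bases before its start, and in 5.59% of all promoters. TGACNNNGC, the antioxidant response element, was in 0 of 8 and in 10.1% of all. No match overlapped a match of another motif. The *Phgdh* stretch had 38.8% G and C and 5 CpG sites, whereas *Psat1* had 58% and 18 and *Mthfd2* had 51.6% and 16, compared with medians of 51.2% and 5 over all promoters. A match describes letters only, and its absence concerns these 250 bases only.

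*Phgdh* (rn6 chr2:200484246-200513564, minus strand) encodes phosphoglycerate dehydrogenase, which commits carbon to serine. Its TPM value was 12.0 in the sevoflurane control, 44.1 after 6 h of sevoflurane, against 13.9 in the desflurane control and 10.2 at 6 h of desflurane. The sevoflurane 6 h library stood far above the other 3, which lay close together. *Phgdh* rose 3.69-fold (log2 1.88) with sevoflurane and ranked 46 from the top among the genes tested, and against the desflurane control it rose 3.19-fold. With desflurane the log2 change was -0.44 against its own control and -0.23 against the sevoflurane control, neither of which was called. The 2 controls differed by 1.16-fold.

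*Psat1* (rn6 chr1:233124090-233145941, minus strand) encodes phosphoserine aminotransferase, the step after *Phgdh*. TPM values were 10.8 in the sevoflurane control, 39.2 after 6 h of sevoflurane, against 14.7 in the desflurane control and 9.21 at 6 h of desflurane. The order of the 4 libraries was the same as for *Phgdh*. *Psat1* rose 3.64-fold (log2 1.87, rank 48) with sevoflurane, and 2.67-fold against the desflurane control. The log2 change with desflurane was -0.67 against its own control and -0.22 against the sevoflurane control, and it was not called. Its ratio to the neighbouring step varied little, since *Phgdh* over *Psat1* was 1.11, 1.13, 0.944 and 1.11 in the sevoflurane control, sevoflurane 6 h, desflurane control and desflurane 6 h libraries.

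*Psph* (rn6 chr12:30514128-30526551, plus strand) encodes phosphoserine phosphatase, the last step. Its TPM values were 6.69, 9.90, 5.66 and 3.86 in the same order of libraries. *Psph* was again highest with sevoflurane at 6 h and lowest with desflurane at 6 h, but over a narrower range than the first 2 enzymes. Against their own controls the log2 changes were 0.57 with sevoflurane and -0.55 with desflurane, and neither was called. *Phgdh* was 1.79 times as abundant as *Psph* in the sevoflurane control and 4.46 times as abundant after 6 h of sevoflurane, whereas the ratio was 2.45 in the desflurane control and 2.65 after 6 h of desflurane. Summed over the 3 enzymes, serine synthesis transcripts amounted to 29.4 TPM in the sevoflurane control, 93.2 after 6 h of sevoflurane, against 34.2 in the desflurane control and 23.3 at 6 h of desflurane.

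The mitochondrial dehydrogenase gene *Mthfd2* (rn6 chr4:115004448-115015965, minus strand) was at 3.53 TPM in the sevoflurane control, 18.8 after 6 h of sevoflurane, against 3.46 in the desflurane control and 1.42 at 6 h of desflurane. The controls were nearly equal, and the 6 h libraries lay on either side of them. *Mthfd2* rose 5.34-fold (log2 2.42, rank 21 from the top) with sevoflurane and 5.44-fold against the desflurane control. It fell with desflurane, by a log2 change of -1.29 from its own control, rank 80 from the bottom among the genes tested, and by -1.32 from the sevoflurane control. The average read coverage behind these values was 6.34, 31.9, 6.48 and 2.39 in the order of the libraries, so that the fall rests on thin coverage. The fall was no longer called with a pseudocount of 1 TPM (log2 -0.88) or with a fold limit of 3. A TPM limit of 5, or the limit of 2 applied to FPKM, also removed the call, since the control had 3.46 TPM or 1.20 FPKM. The fall itself was not smaller in FPKM (log2 -1.36). It was also not called when the shorter transcript assembled in the desflurane 6 h library (2.51 TPM) replaced the annotated row, with a log2 change of -0.46, an alternative chosen after seeing the data.

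*Shmt2* (rn6 chr7:70824719-70829789, minus strand), the mitochondrial hydroxymethyltransferase, was the most abundant member. It had 150 TPM in the sevoflurane control, 188 after 6 h of sevoflurane, against 157 in the desflurane control and 126 at 6 h of desflurane. The 6 h libraries again lay above and below the controls, with log2 changes of 0.33 for sevoflurane and -0.31 for desflurane, and neither was called. The controls differed by 1.05-fold. *Aldh1l2* (rn6 chr7:26375866-26425838, plus strand), the mitochondrial formyltetrahydrofolate dehydrogenase, had TPM values of 83.6, 118, 103 and 96.0 in the same order. Here the controls differed by 1.23-fold, about as much as the sevoflurane 6 h library differed from the desflurane 6 h library (1.23-fold), and no call was made. StringTie assembled this gene in 3 pieces on its strand in every library, and the piece at the 5′ end was lower (between 32.3 and 53.2 TPM) than the remaining pieces (between 86.7 and 123 TPM).

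*Mthfd1l* (rn6 chr1:40529092-40719230, plus strand), the mitochondrial formate-releasing ligase, was below the TPM limit of 2 in all libraries and could not be called. Its TPM values were 0.222 in the sevoflurane control, 0.985 after 6 h of sevoflurane, against 0.486 in the desflurane control and 0.549 at 6 h of desflurane. The sevoflurane 6 h library was highest, and the 2 controls were themselves 2.19-fold apart. Average coverage was between 0.398 and 1.67, which is less than 2 reads deep on average along the gene. The fold values of this gene, 4.45 and 2.03 for sevoflurane against the 2 controls and 1.13 and 2.48 for desflurane, are therefore imprecise.

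*Shmt1* (rn6 chr10:47031050-47059216, minus strand) and *Mthfd1* (rn6 chr6:99282850-99350340, plus strand) form the cytosolic arm. *Shmt1* had 83.0 TPM in the sevoflurane control, 100.03 after 6 h of sevoflurane, against 83.9 in the desflurane control and 105 at 6 h of desflurane. *Mthfd1*, the trifunctional enzyme, had 82.3, 98.9, 81.0 and 113 TPM in the same order. For both genes the 2 controls were within 1.02-fold of each other, and both 6 h libraries stood above both controls. The log2 changes with sevoflurane were 0.27 for each gene, and those with desflurane were 0.32 and 0.49, of which 0.12 is the shift of all genes. No call was made for either. From assembled rows on the same strand, the log2 change of *Mthfd1* with desflurane was 0.10 and that of *Shmt1* was 0.75, so that the size of these small differences depended on the row used.

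*Gldc* (rn6 chr1:248297331-248377093, minus strand) was at 25.3 TPM in the sevoflurane control, 25.2 after 6 h of sevoflurane, against 30.7 in the desflurane control and 18.1 at 6 h of desflurane. It was lowest after 6 h of desflurane and not different with sevoflurane beyond the 1.21-fold gap between controls. Desflurane gave a log2 change of -0.76 and sevoflurane one of -0.01, and *Gldc* was not called. The 3 other proteins of the glycine cleavage system, *Amt*, *Gcsh* and *Dld*, were not called with either agent. Their log2 changes against own controls lay between -0.09 and 0.17, and their TPM values were between 27.3 and 32.4 for *Amt*, 142 and 150 for *Gcsh*, and 65.0 and 70.3 for *Dld*.

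**Figure D2:**
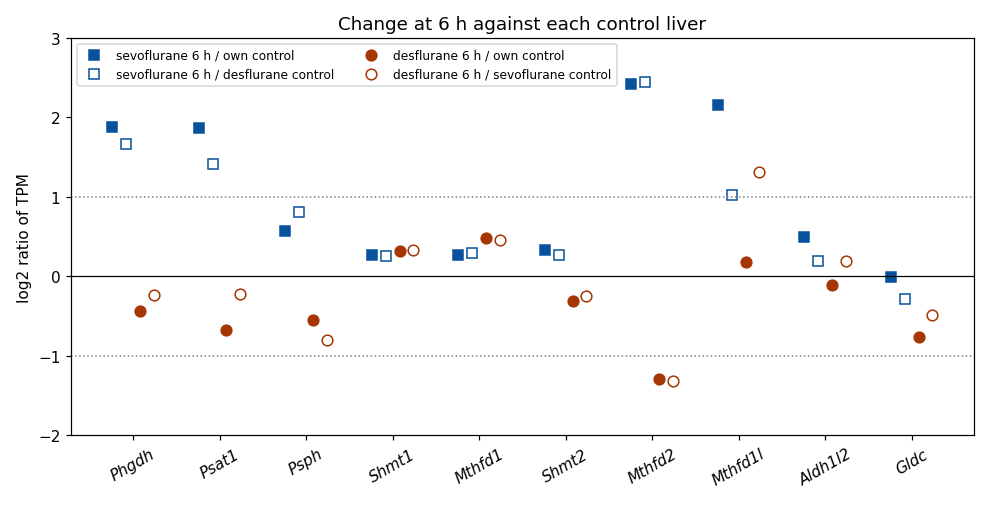
Log2 ratios of TPM of each 6 h library to its own control (filled) and to the control of the other agent (open), for sevoflurane (squares) and desflurane (circles), with dotted lines at the 2-fold limits. *Phgdh*, *Psat1* and *Mthfd2* lie above the upper line with both controls of sevoflurane, *Mthfd2* lies below the lower line with both controls of desflurane, and *Mthfd1l*, whose points past the upper line belong to both agents, had TPM values under 2 throughout.

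The mitochondrial arm was set against the cytosolic arm by the median log2 change of its genes. With sevoflurane the medians were 1.32 for 4 mitochondrial genes and 0.27 for 2 cytosolic genes, a difference of 1.06. With desflurane they were -0.21 and 0.40, a difference of -0.61. The sevoflurane value rested on 1 gene of very low expression, since it was 0.23 without *Mthfd1l*, while the desflurane value was -0.72 without it. Against the control of the other agent, the differences were 0.37 for sevoflurane (-0.01 without *Mthfd1l*) and -0.42 for desflurane (-0.64 without *Mthfd1l*). Between the 2 controls the same difference was 0.19, or 0.07 without *Mthfd1l*.

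Ratios between enzymes that catalyse the same step in the 2 compartments showed where the arms parted. *Mthfd2* over *Mthfd1* was 0.0429 in the sevoflurane control, 0.190 after 6 h of sevoflurane, against 0.0427 in the desflurane control and 0.0125 at 6 h of desflurane. The cytosolic gene was thus more abundant in every library, and the ratio was 15.2-fold higher after 6 h of sevoflurane than after 6 h of desflurane. The size of this gap is imprecise, since *Mthfd2* after desflurane had 1.42 TPM at an average coverage of 2.39. *Shmt2* over *Shmt1* was 1.80, 1.88, 1.87 and 1.20, so that 3 libraries were alike and the desflurane 6 h library was lower. *Aldh1l2* over its cytosolic counterpart *Aldh1l1* was 0.602, 0.949, 0.653 and 0.663, with the sevoflurane 6 h library standing apart instead. *Aldh1l1* itself, at 139, 124, 158 and 145 TPM, was not called. Summed over each arm, mitochondrial over cytosolic transcripts gave 1.43, 1.64, 1.60 and 1.03.

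**Figure D3:**
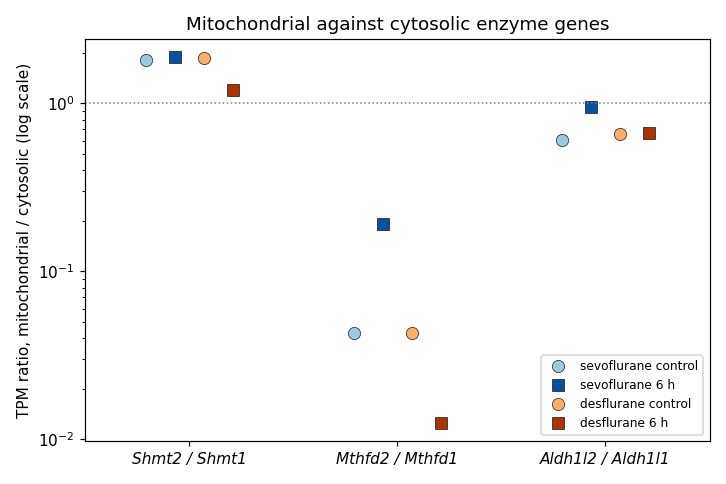
Ratio of TPM values (log axis) of the mitochondrial to the cytosolic enzyme gene for 3 paired steps in the 4 libraries, with controls as circles, 6 h libraries as squares and a dotted line at a ratio of 1. The *Mthfd2* to *Mthfd1* ratio spans from 0.0125 to 0.190, whereas *Shmt2* to *Shmt1* spans from 1.20 to 1.88 and *Aldh1l2* to *Aldh1l1* from 0.602 to 0.949.

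Comparing the 6 h libraries directly, 4 of 10 members were called lower with desflurane, compared with 1.17% of 9829 genes tested, and 0 were called higher, compared with 2.76%. The 4 genes were *Mthfd2* (13.3-fold higher after sevoflurane), *Phgdh* (4.32-fold), *Psat1* (4.26-fold) and *Psph* (2.57-fold). The *Mthfd2* fold rests on thin coverage after desflurane, where the annotated row had 1.42 TPM and the assembled row 2.51 TPM. *Shmt1* and *Mthfd1* differed by 1.05-fold and 1.15-fold, with the higher value after desflurane. Between the 2 controls, 0 of 10 members were called in either direction, compared with 1.17% higher and 1.17% lower of 9756 genes. The median log2 change of the members was -0.71 between the 6 h libraries (0.07 over all genes tested) and 0.14 between the controls (-0.03 over all genes tested). These libraries also differed in markers of other kinds. The cell cycle markers, 12 in number with *Pcna* the highest, summed to 61.2 TPM in the sevoflurane control, 91.2 after 6 h of sevoflurane, against 77.5 in the desflurane control and 65.5 at 6 h of desflurane. All 12 were above the own control with sevoflurane, 1 of them called (*Ccnb1*), compared with 2.23% of all genes tested. Only 7 of 12 were above the desflurane control. The 2 controls were 3.16-fold apart for *Ccnb1*, and its value after sevoflurane was 1.07-fold of the desflurane control. With desflurane 10 of 12 were below the own control, 1 of them called (*Mcm6*), compared with 1.48% of all genes tested. Against the sevoflurane control, however, 8 were above and 4 below with desflurane. There 1 was called higher and 2 lower, compared with 2.84% and 1.58% of all genes tested. All 10 macrophage markers were lower after 6 h of sevoflurane than in either control. Against the own control 3 were called, compared with 3.3% of all genes tested. The part of these cells in the values of the enzyme genes was not tested.

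**Figure D4:**
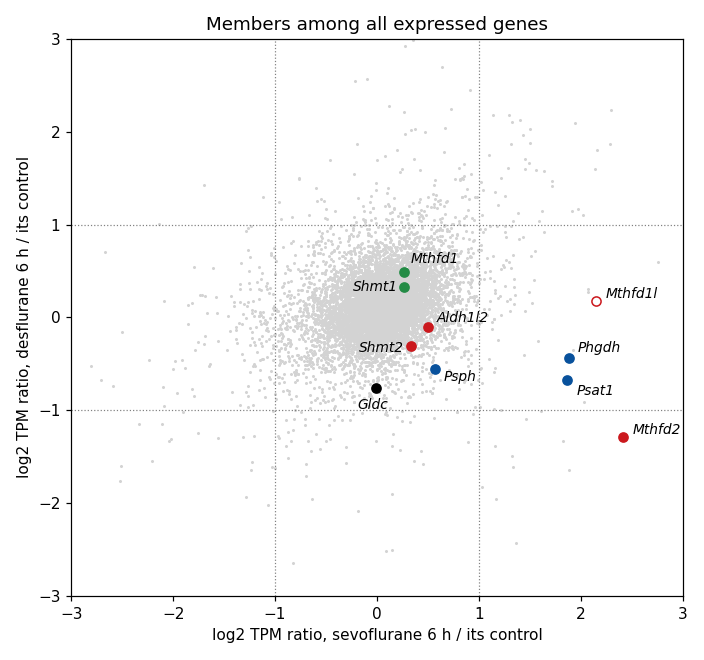
Log2 ratio of TPM to the own control with sevoflurane (horizontal) and desflurane (vertical), with genes above the TPM limit in grey, serine synthesis in blue, the cytosolic arm in green, the mitochondrial arm in red and *Gldc* in black, and dotted lines at 2-fold. *Mthfd2* lies at 2.42 and -1.29, *Phgdh* at 1.88 and -0.44 and *Psat1* at 1.87 and -0.67, while *Mthfd1l* (open circle) was under the TPM limit.

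Around the members, 53 genes that supply or use serine, glycine, folate and methyl groups were followed as a list, also chosen with earlier results known. With sevoflurane 3 of 53 were called higher and 0 lower against the own control, compared with 2.23% and 3.3% of all genes tested. With desflurane 5 were called higher and 0 lower, compared with 2.79% and 1.48%. The same shares stand beside the counts of the smaller groups of this list, which are also against the own control. Their median log2 change, with 1 TPM added, was 0.16 with sevoflurane and 0.15 with desflurane, beside 0.05 and 0.11 for the 9136 genes above the limit in all libraries. Against the control of the other agent, 5 were called higher and 1 lower with sevoflurane (2.52% and 2.59% of all genes tested), and 4 higher and 1 lower with desflurane (2.84% and 1.58%).

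Among methionine and betaine cycle genes, 1 of 14 was called with sevoflurane and 2 with desflurane. *Bhmt*, which remethylates homocysteine with betaine, was the most abundant gene of the list, at 1239 TPM in the sevoflurane control, 3085 after 6 h of sevoflurane, against 1099 in the desflurane control and 4019 at 6 h of desflurane. Both 6 h libraries were above both controls, and *Bhmt* rose 2.49-fold with sevoflurane and 3.66-fold with desflurane. Reads may be shared with its close paralog *Bhmt2*, which had between 337 and 433 TPM. *Mat1a*, the liver methionine adenosyltransferase, had 705, 1343, 713 and 1502 TPM in that order, and rose 2.11-fold with desflurane, with 1.90-fold for sevoflurane below the limit. *Ahcy*, which hydrolyses S-adenosylhomocysteine, had 451, 524, 333 and 604 TPM and was not called.

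Among 17 genes of serine and glycine use and transport, the 2 that were called against the own control rose with both agents. *Sds*, the dehydratase that degrades serine, had 28.8 TPM in the sevoflurane control, 109 after 6 h of sevoflurane, against 20.2 in the desflurane control and 44.6 at 6 h of desflurane, a rise of 3.77-fold and 2.21-fold. Against the sevoflurane control its value after desflurane was 1.55-fold higher and not called. Serine synthesis transcripts over *Sds* were 1.02 in the sevoflurane control, 0.857 after 6 h of sevoflurane, against 1.69 in the desflurane control and 0.522 at 6 h of desflurane. *Alas1*, which consumes glycine for heme, had 98.2, 433, 100.2 and 304 TPM and rose 4.41-fold with sevoflurane and 3.04-fold with desflurane. Against the desflurane control, 2 of the 17 were called higher and 1 lower (*Cth*, log2 -1.02) with sevoflurane, compared with 2.52% and 2.59%. Against the sevoflurane control, 1 was called higher and 1 lower (*Slc1a4*, log2 -1.15) with desflurane, compared with 2.84% and 1.58%.

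Of 13 other folate enzymes and carriers, 0 were called with sevoflurane and 1 with desflurane against the own control. The called gene was *Slc25a32*, the mitochondrial folate carrier, with 13.2 TPM in the sevoflurane control, 23.1 after 6 h of sevoflurane, against 10.004 in the desflurane control and 28.1 at 6 h of desflurane. It rose 2.81-fold with desflurane, and its value with sevoflurane was 1.76-fold of the control. Against the desflurane control, 2 of the 13 genes were called higher with sevoflurane, *Slc25a32* (2.31-fold) and the histidine-degrading *Ftcd* (2.04-fold). *Ftcd* had 140, 221, 108 and 216 TPM in the order of the libraries, so the 6 h libraries were alike. Against the own control it was 1.58-fold higher with sevoflurane and 1.999-fold with desflurane, the latter just under the limit. The carrier was thus highest in the library in which *Mthfd2* was lowest. All 6 purine synthesis genes were above their control with sevoflurane and 5 of 6 with desflurane, but 0 were called. Their summed TPM was 121, 160, 113 and 124 in the order of the libraries.

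**Figure D5:**
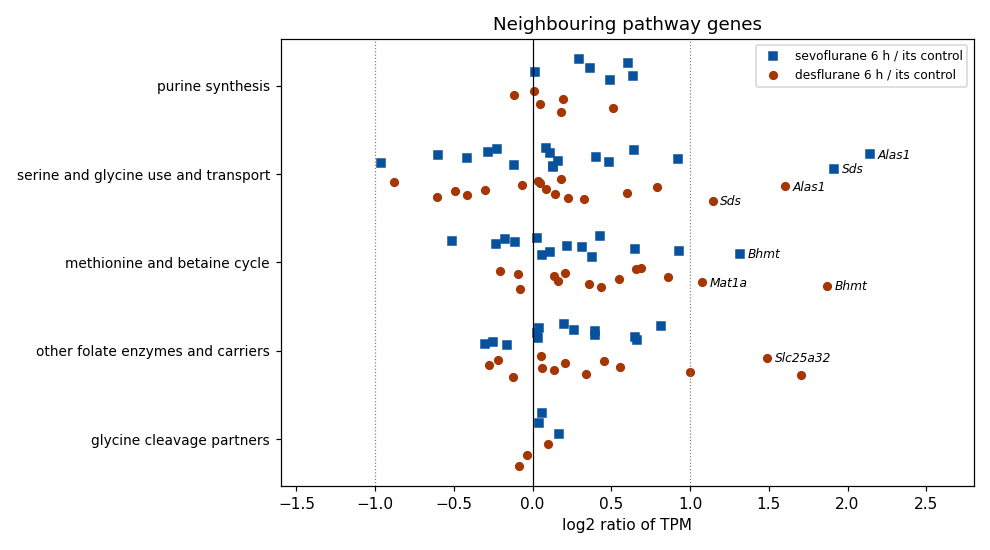
Log2 ratio of TPM to the own control for 53 neighbouring genes in 5 groups, with sevoflurane as squares, desflurane as circles and dotted lines at 2-fold, and with the called genes named. *Sds*, *Alas1* and *Bhmt* lie above the line with both agents and *Mat1a* and *Slc25a32* with desflurane, while the unnamed circle at 1.70 (*Mthfd2l*) had TPM values under 2.

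Of 22 genes of ATF4 and its targets that are not members, 12 were called higher and 0 lower with sevoflurane against the own control, compared with 2.23% and 3.3% of all genes tested. The list was chosen with earlier results of these data known, so its counts are a description only. With desflurane 1 was called higher (*Trib3*) and 3 lower (*Chac1*, *Ddit4* and *Aldh18a1*), compared with 2.79% and 1.48%. When the controls were exchanged, 7 were called higher and 1 lower (*Atf3*) with sevoflurane, and 2 higher and 0 lower with desflurane, so that all 3 lower calls of desflurane were lost. The 12 genes were *Asns*, *Trib3*, *Chac1*, *Ddit4*, *Nupr1*, *Fgf21*, *Vldlr*, *Aldh18a1* and the amino acid transporter genes *Slc7a11*, *Slc7a5*, *Slc3a2* and *Slc7a1*, with folds from 2.07 (*Nupr1*) to 9.97 (*Fgf21*). Against the desflurane control *Fgf21* was 2.94-fold higher, the controls themselves being 3.40-fold apart, and *Nupr1* (1.74-fold), *Slc7a5* (1.84-fold), *Ddit4* (1.71-fold), *Vldlr* (1.63-fold) and *Aldh18a1* (log2 0.42) were not called. With 1 TPM added, the median log2 change was 0.94 for sevoflurane and -0.12 for desflurane (0.05 and 0.11 over the 9136 genes), but 0.48 and 0.15 with exchanged controls (0.07 and 0.09). *Atf4* itself had 99.95 TPM in the sevoflurane control, 172 after 6 h of sevoflurane, against 136 in the desflurane control and 109 at 6 h of desflurane, and was not called, nor were *Atf5* (between 465 and 809 TPM) and *Cebpb* (between 111 and 164 TPM), the other abundant genes of the list. *Asns*, which makes asparagine, had 12.4, 47.2, 18.3 and 14.4 TPM. Over the 4 libraries, the genes whose centred log2 profile lay closest to the mean profile of *Phgdh*, *Psat1* and *Mthfd2* among 9128 candidates were *Adm2* (distance 0.46), *Asns* (0.72), *Ddit4* (0.82), *Bco1* (0.83) and *Hspa8* (0.86). The distances of the 3 reference genes themselves were 0.39 for *Phgdh*, 0.43 for *Psat1* and 0.79 for *Mthfd2*. A profile over 4 libraries has few points, and this list is a description only.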

How the data were processed

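Liver RNA of 4 rats was sequenced as stranded total RNA, with 1 library for each condition. The authors trimmed the reads with sickle, mapped them to rn6 with HISAT2 under default parameters, sorted them with SAMtools and ran StringTie with the rn6 refGene annotation, so reads of overlapping antisense transcripts may not be told apart. The labels and the methods of the study name different kits of the same maker.

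The deposited tables hold an average coverage per gene, which is a signal not normalized for library size, and FPKM values normalized by the authors with StringTie. The deposited TPM values are treated as a signal, since StringTie brought the assembled rows of each library to a sum of 1000000 and the annotated rows come on top, with sums between 779824 and 813454. Annotated rows longer than 200 base pairs were used here, and TPM values were summed per symbol. Depth was derived from the ratio of coverage to FPKM. Without read counts, no counting interval was calculated.

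The members and gene lists were chosen with earlier results of these data known. Groups came from the sample labels. The text names all members, every gene called against its own control and the 3 most abundant genes of the pathway and ATF4 lists, the highest gene of each marker list, and the 5 genes of closest profile. The acinar genes at 0, *Aldh1l1*, *Bhmt2*, *Mthfd2l*, *Ftcd*, *Cth*, *Slc1a4*, *Atf3*, the glycine cleavage partners, *Ccnb1* and *Mcm6* were added after their values were seen. Folds were calculated without a pseudocount, and medians of the pathway and ATF4 lists with 1 TPM added. Alternatives covered the TPM and fold limits, a pseudocount, scaling, FPKM, rows, the choice of control and the genes of the arms.

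Promoters were those of RefSeq (GRCr8). Calculations used Python 3.11.15, numpy 2.4.6, pandas 2.3.3 and matplotlib 3.10.9. The code for the calls was run on simulated data with large changes in well expressed genes. That run checks the code only, since it held no changes near the limits.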

Additional observations from a re-analysis of the deposited data

Results flagged for a closer look

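The log2 change with sevoflurane minus that with desflurane, each against its own control, was 3.70 for *Mthfd2*, 2.54 for *Psat1*, 2.32 for *Phgdh*, 1.12 for *Psph*, 0.64 for *Shmt2* and 0.60 for *Aldh1l2*. In each of these 6 genes the sevoflurane library was above its control and the desflurane library below its control, which is why they are listed. For *Aldh1l2* the direction with desflurane turned when the sevoflurane control was used (log2 0.20 instead of -0.10) or the mean of both controls (log2 0.04). The mitochondrial minus cytosolic difference was likewise positive with sevoflurane and negative with desflurane, and the gap between the agents was 1.67. That gap includes *Mthfd1l*, which was under the TPM limit, and without it the differences were 0.23 and -0.72. Against the desflurane control and without *Mthfd1l*, the sevoflurane difference was -0.01. With 1 rat per condition, none of these differences between agents was tested.

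The tables also hold rows that StringTie assembled on the strand opposite to a member, or on no strand, inside its borders. These rows enter no comparison of the enzyme genes. Inside *Mthfd1* such a row was at 10.6 TPM after 6 h of desflurane and at 3.56, 4.23 and 4.36 TPM in the sevoflurane control, sevoflurane 6 h and desflurane control libraries. Inside *Shmt2* there was a row of 3.47 TPM after 6 h of sevoflurane and 1.15 TPM after 6 h of desflurane, and no such row in the controls. Inside *Aldh1l2* a row without strand was at 4.78 TPM after 6 h of sevoflurane and 4.88 TPM after 6 h of desflurane, compared with 3.86 TPM in the desflurane control and no row in the sevoflurane control. The origin of these rows was not tested.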

How the results depend on the processing

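Against the sevoflurane control, 3 members were called higher with sevoflurane under each of the TPM limits, fold limits, pseudocount, scalings, units and row choices tried. Against the desflurane control the count was 4 with a fold limit of 1.5, 2 with a fold limit of 3 and 3 under the remaining settings. Leaving aside settings chosen after seeing the data, 94 kept a count within 1.5 times its value or an arm difference within the SD between the controls, and 14 did not. Some of the 94 could not have changed. Each member had 1 annotated row per library, so leaving out the length filter or taking the largest row had no effect. Scaling and FPKM cancel out in an arm difference. These 14 concern the members called lower with desflurane and the arms. With a TPM limit of 5, a fold limit of 3 or a pseudocount of 1 TPM, 0 members were called lower with desflurane against either control. With FPKM in place of TPM, 0 were called lower against the own control. Against the sevoflurane control the FPKM count stayed at 1, but the gene was *Psph* (2.62 against 1.27 FPKM after desflurane). *Mthfd2* had 1.38 FPKM in that control and was under the limit. With a fold limit of 1.5, the count was 3 against the own control and 2 against the sevoflurane control, since *Psat1* and *Gldc* in the former and *Psph* in the latter joined *Mthfd2*. For sevoflurane, the mitochondrial minus cytosolic difference was 0.33 with a pseudocount of 1 TPM, 0.23 with *Gldc* and *Aldh1l1* added to the arms, and 0.23 without *Mthfd1l*, a setting chosen after seeing the data. Against the desflurane control these values were 0.073, 0.011 and -0.0063, of which the last is reversed. For desflurane against the sevoflurane control the difference was -0.58 with *Gldc* and *Aldh1l1* added and -0.64 without *Mthfd1l*. That SD was 0.13. Beyond the genes that make up each arm, the cause was not tested.

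Precision is limited by 1 library per condition and by coverage, which was thin for *Mthfd1l* in all libraries and for *Mthfd2* after 6 h of desflurane. No paired analysis was possible because each condition has 1 library.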
